A study of Mus musculus with 32 samples.

Results

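The enzymes of glycolysis and of the pentose phosphate pathway, with the glucose carriers that feed them, were followed through astrocyte ribosomes and whole spinal cord. They are 32 genes chosen by symbol: carriers, hexokinases, glycolytic enzymes, the Pfkfb regulators, glycerol phosphate dehydrogenases and pentose phosphate enzymes. The symbols matched 33 of the 55938 Ensembl genes of the table, because Aldoa had a second, short entry with 0 to 13 counts in a library. The mice behind all 32 libraries carried 2 alleles, Aldh1l1-CreER and Rpl22-HA. The first makes a tamoxifen-dependent recombinase in astrocytes, and the second is a ribosomal protein that gains an HA tag after recombination. The sample labels spell this genotype Aldhl1l-CreER;Rpl22-HA, and uninjured mice carried the same alleles. Ribosomes were pulled from homogenised lumbar cord with an anti-HA antibody (24 Trap libraries), and RNA of the homogenate with all its cell types served as Input (8 libraries). Tissue was taken without injury or at 3, 5 or 7 weeks after a fracture that models complex regional pain syndrome. Each combination of sex and state had 3 Trap libraries and 1 Input library. Whether each library was its own animal is not stated in the labels; the p-values therefore rest on library-to-library spread, which may be technical.

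Glycolysis splits glucose into pyruvate in a chain of cytosolic steps, of which hexokinase, phosphofructokinase and pyruvate kinase are the main points of control. The pentose phosphate pathway branches off after hexokinase; its oxidative arm makes NADPH and its non-oxidative arm returns sugar phosphates to glycolysis. Several steps have tissue-specific isozymes, and in the nervous system aldolase C is known as an astrocyte protein, neuron-specific enolase (Eno2) and the carrier GLUT3 (Slc2a3) as neuronal ones, and GLUT1 (Slc2a1) as the carrier of astrocytes and of the blood-brain barrier.

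Total estimated counts were 17124034 to 23189228 in Trap and 17981133 to 22907909 in Input libraries, and the 33 entries took 3.27% to 4.17% of them in Trap (median 3.48%) and 1.25% to 1.57% in Input (median 1.37%). All 12 astrocyte markers were higher in Trap (log2 difference 1.84 to 3.70, median 3.20), and all 12 neuron markers (-4.71 to -3.51, median -4.12), 8 oligodendrocyte, 7 microglia and 6 endothelial markers were lower. Of 5 mural markers 1 was higher and 4 lower, of 3 Schwann cell markers tested 1 was lower, and all 5 red blood cell markers were higher (median 2.38). Carry-over of other cells was expressed as an index in log2 CPM (CPM being counts scaled to library size), the markers of those 4 cell types minus the astrocyte markers on average. It was -7.90 to -6.33 in Trap and -1.09 to -0.77 in Input. Its highest Trap value, -6.33, belonged to female 3 weeks replicate 3, and the next was -6.87. Male 7 weeks replicate 2 also stood apart, with the highest Trap level of Aldoa, Aldoc, Gapdh, Pgk1, Eno1, Tpi1 and Pkm.

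Levels among the genes were compared as CPM per kb of exon. Aldoc stood first in Trap, at 5061 ± 458 CPM per kb (SD, n = 24), against 505 ± 57.2 in Input (SD, n = 8), where it was also first. In Trap it was followed by Gapdh (1034 ± 133), which makes glycolytic NADH, the muscle-type phosphofructokinase Pfkm (839 ± 73.0), pyruvate kinase Pkm (556 ± 40.2) and phosphoglycerate kinase Pgk1 (556 ± 52.1). Next was Aldoa (499 ± 54.9), and the ranges of Pkm, Pgk1 and Aldoa overlapped. In Input the order after Aldoc was Pkm (365 ± 40.7), Gapdh (354 ± 40.9) and Aldoa (341 ± 37.6), whose ranges overlapped. These orders depend on the length used. Per kb of the longest transcript Pkm (750.6) and Aldoa (640.8) stood above Aldoc (592.0) in Input. In Trap Aldoc stayed first on that scale (5927), while Pkm (1143) passed Pfkm (973.5) and Eno1 (789.2) passed Pgk1 (683.4). Pentose phosphate genes were lower than most of glycolysis in both fractions. Transketolase Tkt reached 65.5 ± 6.67 CPM per kb in Trap and 21.1 ± 2.13 in Input, and glucose 6-phosphate dehydrogenase G6pdx, which opens the oxidative arm, 43.1 ± 2.40 in Trap and 16.9 ± 1.76 in Input. At the bottom were hexokinase 2 (Hk2), at 0.763 ± 0.188 in Trap and 0.800 ± 0.127 in Input, and the liver-type regulator Pfkfb1, at 0.0401 ± 0.0274 in Trap and 0.111 ± 0.0571 in Input.

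**Figure D1:**
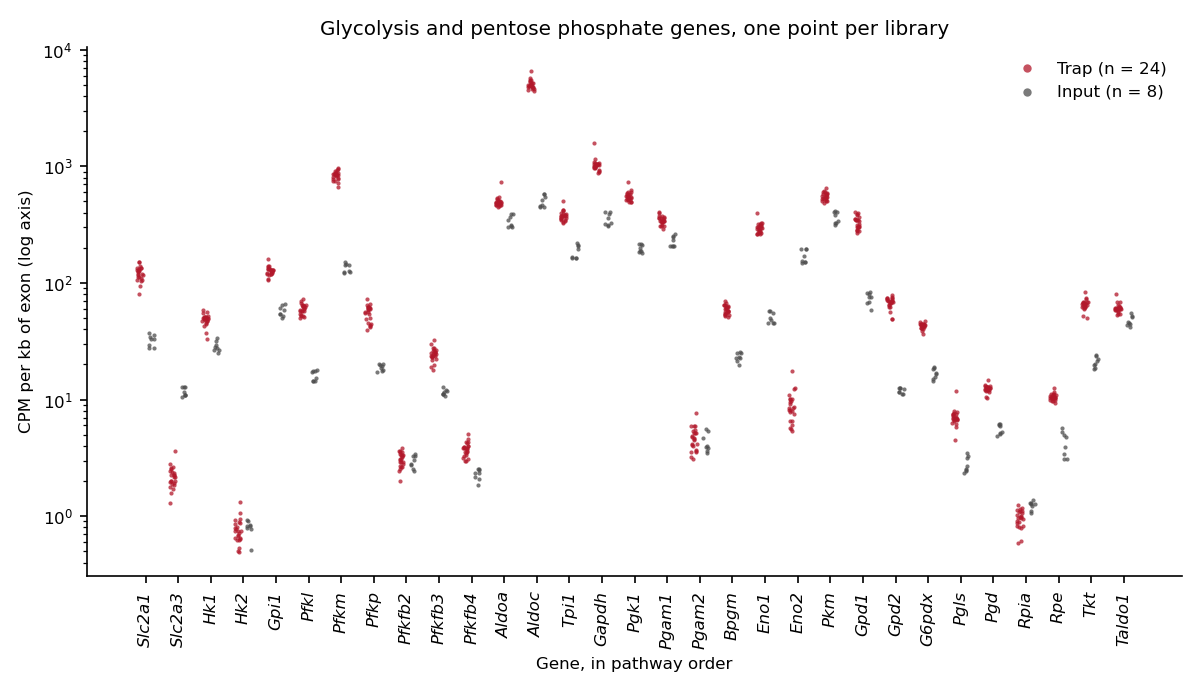
Level of each gene per kb of exon (CPM per kb, log axis) in the 24 Trap libraries (red, left) and the 8 Input libraries (grey, right), with a point per library and genes in pathway order. The red points lie above the grey for most genes and below them for Slc2a3 and Eno2; Aldoc averages 5061 CPM per kb in Trap and 505 in Input.

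Setting Trap against Input addressed which transcripts were over-represented on astrocyte ribosomes. Of the 31 genes with enough counts to test, 25 were higher in Trap and 3 lower (edgeR quasi-likelihood test, adjusted p under 0.05 over all genes), and Hk2, Pfkfb2 and Pgam2 were not called. Across the transcriptome 88.1% of genes tested were called, 44.4% higher and 43.7% lower, and the median log2 difference was 1.15 for the 31 genes against 0.02 for all 15913. Levels in Trap and Input did not overlap for 25 of the 31 genes, and for 56.6% of all genes tested. DESeq2's size factors moved the median of all genes by -0.10 and also gave 25 higher and 3 lower, while the uncalled Pfkfb2 had 0.06 without them and -0.04 with them. A fold here compares shares of RNA, so fewer cells of a type and less RNA per cell cannot be told apart.

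Glucose carriers parted. GLUT1 (Slc2a1, ENSMUSG00000028645.11, chromosome 4 at 119108711 to 119137983 of GRCm38) had 284 CPM in the lowest, 428 in the median and 530 in the highest Trap library, against 97.0, 115.6 and 129.7 in Input. The fractions did not overlap, and Slc2a1 was higher in Trap by 1.91 ± 0.078 on the log2 scale (adjusted p = 8.33e-23). GLUT3 (Slc2a3, ENSMUSG00000003153.10, chromosome 6 at 122727809 to 122801640) went the other way, with 9.43, 15.8 and 26.5 CPM in Trap as lowest, median and highest, against 76.5, 82.0 and 93.4 in Input. It was lower in Trap, with a log2 difference of -2.43 ± 0.086 (adjusted p = 5.18e-24).

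Hexokinase and phosphofructokinase, which trap and commit the sugar, were led by Hk1 and Pfkm. Hk1, the widespread isozyme, was higher in Trap by 0.76 ± 0.069 (adjusted p = 1.48e-12), and its libraries overlapped, from 282 to 504 CPM in Trap and from 213 to 291 in Input. Hk2 averaged 4.56 ± 1.12 CPM in Trap and 4.77 ± 0.755 in Input, a difference of -0.07 with a 95% interval of -0.29 to 0.15. All 3 phosphofructokinases were higher in Trap. Pfkm (ENSMUSG00000033065.14, chromosome 15 at 98092589 to 98132451) had 2223, 2846 and 3268 CPM as lowest, median and highest in Trap, against 409.5, 446.5 and 507.4 in Input, a log2 difference of 2.64 ± 0.062 (adjusted p = 4.38e-30). The liver-type Pfkl differed by 1.89 ± 0.068 and the platelet-type Pfkp by 1.54 ± 0.075. Glucose phosphate isomerase Gpi1, the step between them, was higher by 1.14 ± 0.054.

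The Pfkfb enzymes set the level of fructose 2,6-bisphosphate, the activator of phosphofructokinase. Pfkfb3 was higher in Trap by 1.09 ± 0.070, at 185.5 ± 24.4 CPM in Trap and 87.2 ± 5.31 in Input, and Pfkfb4 by 0.71 ± 0.072. Pfkfb2 averaged 22.3 ± 3.21 CPM in Trap and 21.4 ± 2.58 in Input, with a 95% interval of the log2 difference of -0.10 to 0.22. Pfkfb1 had too few counts to be tested.

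Aldolase C (Aldoc, ENSMUSG00000017390.15, chromosome 11 at 78322968 to 78327781) was the furthest above Input of the 31. Its lowest, median and highest Trap libraries held 14510, 16220 and 21450 CPM, against 1463, 1606 and 1900 in Input, a log2 difference of 3.33 ± 0.059 (adjusted p = 2.37e-33). The fractions did not overlap. Aldoa, the muscle and general form, was higher by 0.55 ± 0.056 (adjusted p = 1.99e-11). Its counts before scaling overlapped, with 23115 to 38423 in Trap and 20436 to 32693 in Input. The steps that follow were higher in Trap too: triose phosphate isomerase Tpi1 by 1.02 ± 0.062, Gapdh by 1.55 ± 0.062, Pgk1 by 1.49 ± 0.054 and phosphoglycerate mutase Pgam1 by 0.60 ± 0.048. Bpgm, which makes 2,3-bisphosphoglycerate, was higher by 1.36 ± 0.057, and Pkm by 0.61 ± 0.046, a count that does not separate its splice forms. All 5 red blood cell markers were higher in Trap too (2.09 to 2.49), and their part in the value of Bpgm was not tested.

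Enolase showed the widest split. Eno1 (ENSMUSG00000063524.13, chromosome 4 at 150236721 to 150248879), the general form, had 1405, 1590 and 2127 CPM as lowest, median and highest in Trap, against 241.7, 265.1 and 311.3 in Input, a log2 difference of 2.56 ± 0.062 (adjusted p = 1.12e-29). Eno2 (ENSMUSG00000004267.16, chromosome 6 at 124760053 to 124769673) had 25.1, 40.0 and 83.3 CPM in Trap, against 696, 764.5 and 925 in Input, a difference of -4.26 ± 0.135 (adjusted p = 8.27e-23). Its value lay within the ranges of the neuron, oligodendrocyte (-4.40 to -0.74) and microglia markers (-4.30 to -0.91), and that of Slc2a3 within those of the oligodendrocyte, microglia and endothelial markers (-3.72 to -2.02) but outside that of the neuron markers. The 83.3 CPM of Eno2 was in female 3 weeks replicate 3, the Trap library with the highest carry-over index; what that carry-over adds to Eno2 was not tested. The count of Eno1 itself is uncertain, because RSEM gave the near copy Eno1b 115% to 131% of the Eno1 count in Trap and 118% to 124% in Input, and an Eno1b transcript matched an Eno1 transcript at 94.6% of 1791 bases. With both summed, the call and direction of Eno1 were kept.

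The glycerol phosphate dehydrogenases carry cytosolic reducing power to mitochondria. Gpd1, the cytosolic one, had 790, 979 and 1192 CPM as lowest, median and highest in Trap, against 174.0, 225 and 249 in Input, a log2 difference of 2.16 ± 0.061 (adjusted p = 8.74e-28). Mitochondrial Gpd2 differed by 2.50 ± 0.074 (adjusted p = 3.84e-27). Together with Aldoc, Pfkm, Eno1, Slc2a1 and Pfkl these are the 7 genes whose log2 difference lay inside the range of the 12 astrocyte markers. All 5 red blood cell markers (2.09 to 2.49) and 1 mural marker (2.20) lay inside that range too. Gpd1 lay within the range of the red blood cell markers as well.

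Pentose phosphate genes were moderately higher. All 3 genes of the oxidative arm were higher in Trap, G6pdx by 1.36 ± 0.045, phosphogluconolactonase Pgls by 1.35 ± 0.095 and phosphogluconate dehydrogenase Pgd by 1.15 ± 0.051. In the non-oxidative arm Tkt was higher by 1.64 ± 0.060, the epimerase Rpe by 1.31 ± 0.076 and transaldolase Taldo1 by 0.37 ± 0.055. Before scaling Taldo1 had overlapping counts, 1909 to 3161 in Trap and 2169 to 3256 in Input. Ribose phosphate isomerase Rpia, which makes the ribose of nucleotides, was lower, with a difference of -0.37 ± 0.085 (adjusted p = 0.000157), with 5.14 ± 0.881 CPM in Trap and 6.64 ± 0.584 in Input and overlapping libraries.

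**Figure D2:**
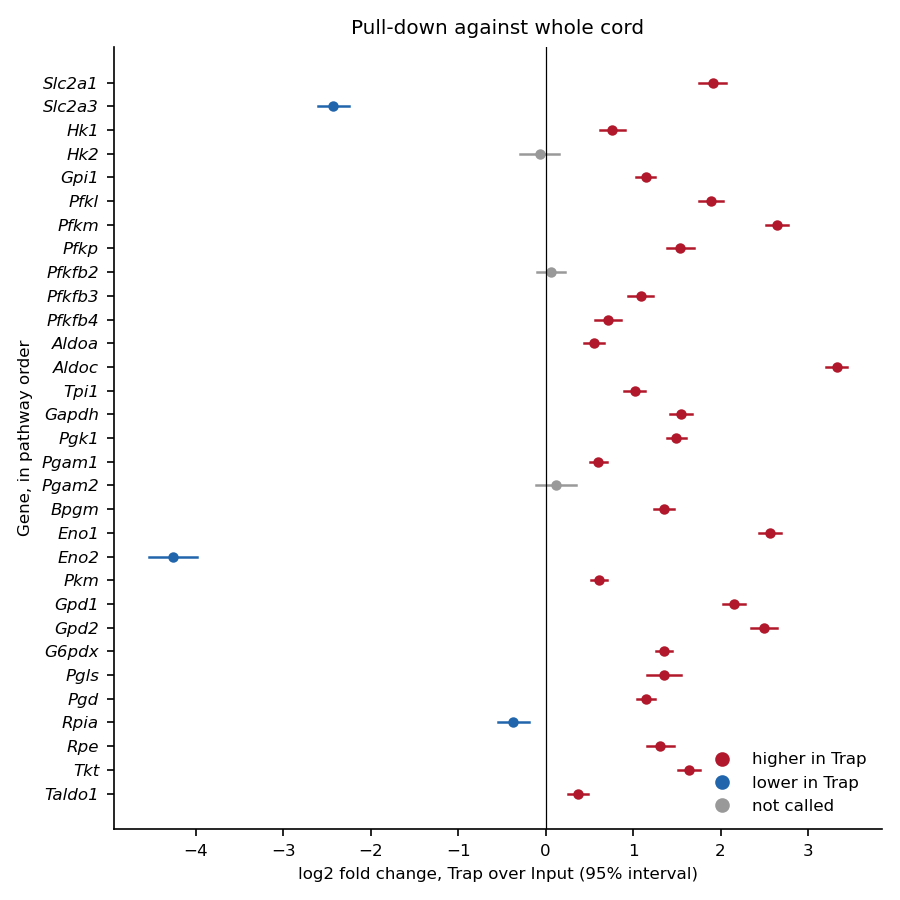
Log2 fold change of Trap over Input with its 95% interval for the 31 genes tested, in pathway order (red, higher in Trap; blue, lower; grey, not called). Aldoc lies farthest right at 3.33, Eno2 farthest left at -4.26, and 25 of the 31 intervals lie to the right of 0 as calls.

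Isozyme shares describe the same split within each family, as each gene's percent of the family's CPM per kb. Enolase changed most between fractions: Eno1 made up 93.8% to 98.1% of the pair in the 24 Trap libraries and 22.0% to 24.1% in the 8 Input libraries. By this measure Eno2 was the larger share in Input. With Eno1b added to Eno1, the share of Eno1 averaged 98.7% in Trap and 39.5% in Input. Per kb of the longest transcript, without Eno1b, it averaged 98.1% in Trap and 31.8% in Input. The 2 changes together were not computed, so which enolase leads in Input is not settled here. Aldoc was 90.0% to 92.1% of the aldolases in Trap and 59.0% to 60.2% in Input, and Slc2a1 96.9% to 98.7% of the carriers in Trap and 71.5% to 76.4% in Input. Pfkm made up 86.7% to 89.6% of phosphofructokinase in Trap and 78.7% to 80.4% in Input, with Pfkp at 5.80% ± 0.664 in Trap and 11.2% ± 0.468 in Input. Pfkfb3 was 73.1% to 84.0% of its family in Trap and 65.0% to 72.6% in Input. Ranges of the fractions did not overlap for any of these shares. Gpd1 averaged 82.9% ± 2.13 of its pair in Trap and 86.0% ± 1.90 in Input, with overlapping libraries. Hk1 (98.4% ± 0.444 in Trap, 97.3% ± 0.557 in Input) and Pgam1 (98.7% ± 0.285 in Trap, 98.1% ± 0.434 in Input) dominated their pairs in both fractions, also with overlapping libraries. Per kb of the longest transcript Aldoc averaged 86.3% in Trap and 48.0% in Input, so which aldolase leads in Input depends on the length used.

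**Figure D3:**
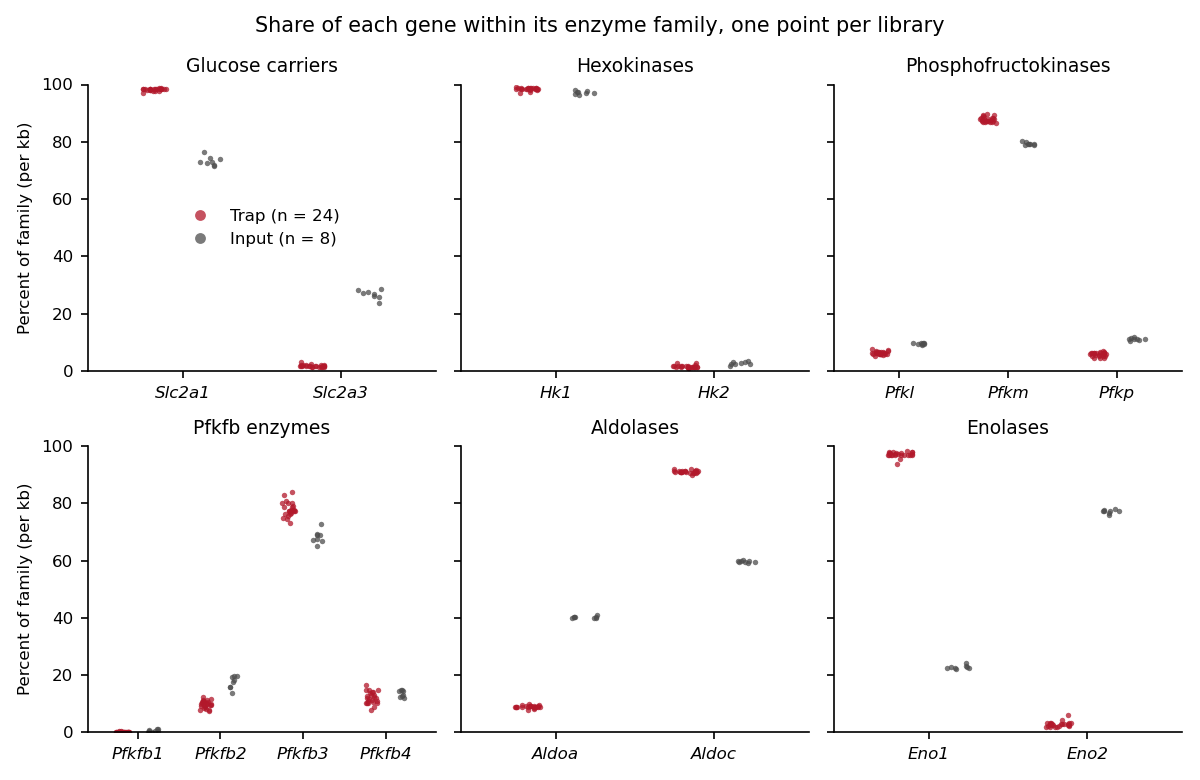
Percent of each enzyme family's CPM per kb taken by each gene, with a point per library (24 Trap in red, left; 8 Input in grey, right). Eno1 is the larger share in Trap and, per kb of exon and without Eno1b, Eno2 in Input. The aldolases and glucose carriers shift toward Aldoc and Slc2a1 in Trap.

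The promoters of the genes on which these contrasts and the later fracture values turn are shown as the 250 bases before the RefSeq start nearest the annotated gene start (GRCm38.p6). Of the 32 symbols 30 had an entry. Capitals mark matches on either strand to the GC box GGGCGG, the CCAAT box, the TATA box TATAAA and the hypoxia response core ACGTG, which the E-box CACGTG contains.
Aldoc, chr11:78322823-78323072, plus strand: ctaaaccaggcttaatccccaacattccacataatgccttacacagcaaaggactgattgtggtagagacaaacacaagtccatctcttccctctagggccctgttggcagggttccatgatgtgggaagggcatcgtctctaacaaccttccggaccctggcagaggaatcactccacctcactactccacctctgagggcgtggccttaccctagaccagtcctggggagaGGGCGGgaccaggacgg
Eno1, chr4:150236458-150236707, plus strand: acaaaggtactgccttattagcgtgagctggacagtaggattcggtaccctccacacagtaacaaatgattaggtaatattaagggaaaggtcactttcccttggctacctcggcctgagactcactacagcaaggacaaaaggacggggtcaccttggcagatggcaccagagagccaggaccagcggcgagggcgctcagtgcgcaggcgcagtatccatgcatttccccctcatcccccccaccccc
Eno2, chr6:124769674-124769923, minus strand: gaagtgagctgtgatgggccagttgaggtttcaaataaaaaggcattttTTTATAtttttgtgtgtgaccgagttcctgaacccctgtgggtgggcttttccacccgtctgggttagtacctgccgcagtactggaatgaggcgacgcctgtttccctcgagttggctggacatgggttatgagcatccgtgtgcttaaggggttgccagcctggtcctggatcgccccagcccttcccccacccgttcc
Slc2a1, chr4:119108495-119108744, plus strand: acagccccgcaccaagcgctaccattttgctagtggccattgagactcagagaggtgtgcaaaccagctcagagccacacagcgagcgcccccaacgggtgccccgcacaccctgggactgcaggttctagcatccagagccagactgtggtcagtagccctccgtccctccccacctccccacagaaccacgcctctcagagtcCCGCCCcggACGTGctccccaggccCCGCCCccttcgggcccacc
Pfkp, chr13:6648772-6649021, minus strand: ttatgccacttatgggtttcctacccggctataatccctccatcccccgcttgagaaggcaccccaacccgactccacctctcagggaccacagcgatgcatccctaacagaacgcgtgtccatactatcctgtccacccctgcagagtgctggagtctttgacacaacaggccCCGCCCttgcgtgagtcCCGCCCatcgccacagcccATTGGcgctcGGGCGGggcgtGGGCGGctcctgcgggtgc

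The letters differ among them. Pfkp held 4 GC boxes and 1 CCAAT box, Slc2a1 held 2 GC boxes and 1 ACGTG, Aldoc held 1 GC box, Eno2 held 1 TATAAA, and the Eno1 window held 0 matches. A GC box was in 19 of the 30 windows (63.3%) and in 32.7% of all 32851 promoter windows of the table. ACGTG was in 6 of 30, those of Hk2, Pfkfb3, Pfkm, Pgam1, Pgk1 and Slc2a1, and in 16.6% of all windows. CCAAT was in 9 of 30 (30.0%) and 33.8% of all, TATAAA in 1 of 30 (3.33%) and 12.4% of all, and CACGTG in 1 of 30, that of Pfkm (3.33%), and 6.02% of all. The 30 are 1 window per gene, whereas the 32851 hold every listed start, also several of the same gene, so the shares compare unlike sets. For 25 of the 30 windows the 20 bases after the start occurred in an annotated transcript of the gene. These motif counts are matches of letters and show no binding.

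Other genes of sugar metabolism, a list of 36 outside the 32, gave 14 higher and 10 lower of 27 tested in Trap against Input (median 0.46). Phosphoglucomutase Pgm1, which links glycogen to glycolysis, was higher by 2.86 ± 0.076 (adjusted p = 1.6e-28) and galactose mutarotase Galm by 2.64 ± 0.083 (2.32e-26). The inositol carrier Slc2a13 (-3.08 ± 0.079, adjusted p = 5.91e-29) and the carrier Slc2a6 (-3.83 ± 0.106, 6.78e-28) were lower. Of 21 regulators of the pathway 9 were higher and 6 lower (median 0.06). Nfe2l2, which drives NADPH-making enzymes under oxidative stress, was higher by 2.32 ± 0.066 (adjusted p = 1.4e-27), Epas1, a hypoxia-inducible factor, by 2.28 ± 0.078 (3.46e-25), and Vhl, which marks such factors for destruction, by 2.20 ± 0.055 (2.37e-29). Tigar, a phosphatase that lowers fructose 2,6-bisphosphate, was lower (-2.20 ± 0.056, adjusted p = 3.85e-29).

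The study asked how astrocytes change in acute and chronic pain, and the Trap libraries after fracture were each set against the uninjured ones. At 3 weeks 0 of the 31 genes were called by edgeR (0.111% of all genes tested were), 4 had an unadjusted p under 0.05 against 8.64% of all genes, and DESeq2 called 1, Pfkp. Of the 31 genes 24 had a negative log2 difference (77.4%, against 49.2% of all genes), with a median of -0.07 for the 31 and 0.00 for all. Without female 3 weeks replicate 3 the negative genes were 21 of 31, with a median of -0.04. The 3-week and uninjured ranges overlapped for all 31 genes and did not for 0.813% of all genes. The 95% interval of every gene lay inside ±1 on the log2 scale, and that of 26 genes inside ±0.5.

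Pfkp had the smallest p at 3 weeks. Its lowest, median and highest levels were 654.6, 816 and 971 CPM in uninjured, 534, 592 and 746 at 3 weeks, 562, 784 and 864 at 5 weeks and 608, 803 and 834 at 7 weeks, over 6 Trap libraries each. The libraries at 3 weeks lay lowest on average and overlapped the uninjured ones through female uninjured replicate 3 (654.6 CPM), which lay below male 3 weeks replicate 2 (746 CPM) and female 3 weeks replicate 2 (669.9 CPM). Within males the 3-week libraries (576.5 to 746.1 CPM) lay below the uninjured ones (781.1 to 891.5 CPM) without overlap. In all 4 states the lowest Pfkp level was in female replicate 3, the library with the highest carry-over index of its state each time. The difference at 3 weeks was -0.41 ± 0.103 (95% interval -0.62 to -0.19, adjusted p = 0.111), and it was -0.38 ± 0.146 in males and -0.43 ± 0.146 in females. At 5 weeks the difference was -0.11 ± 0.103 and at 7 weeks -0.09 ± 0.103. Leaving out each of the 12 libraries in turn gave -0.47 to -0.33 with adjusted p of 0.0493 to 0.394, and Pfkp was called in 1 of the 12 fits, that without female uninjured replicate 3. Without both libraries that stood apart edgeR gave -0.37 ± 0.114 (adjusted p = 0.179). Pfkp was also not called by edgeR with DESeq2's size factors or with only the groups compared. DESeq2 gave an adjusted p of 0.0248, and edgeR with the carry-over index added as a covariate gave -0.38 ± 0.082 (adjusted p = 0.0423). With replicate number as a block edgeR gave -0.41 ± 0.069 (adjusted p = 0.0130). With the block within each sex, chosen after seeing the data, edgeR gave -0.41 ± 0.058 (adjusted p = 0.00317). In Input the difference at 3 weeks was -0.06 ± 0.051, and the difference between the Trap and Input effects, -0.36 ± 0.188, was not called (edgeR, adjusted p = 1.0).

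GLUT1 and pyruvate kinase came next. Slc2a1 had 390.5, 457 and 530 CPM as lowest, median and highest in uninjured, 284, 372 and 444 at 3 weeks, 329.5, 419.5 and 492.5 at 5 weeks and 391, 455 and 529 at 7 weeks, with overlapping states. Its difference at 3 weeks was -0.28 ± 0.098 (edgeR, adjusted p = 0.344), and the lowest value, 284 CPM, was in female 3 weeks replicate 3. Without both libraries that stood apart the difference of Slc2a1 was -0.20 ± 0.091 (adjusted p = 0.437). Pkm differed by -0.16 ± 0.058 (adjusted p = 0.347), at 2607 ± 173 CPM at 3 weeks and 2924 ± 131 in uninjured (SD, n = 6 each). Slc2a3 differed by -0.36 ± 0.140 (adjusted p = 0.419), at 14.1 ± 2.65 CPM at 3 weeks and 18.1 ± 4.65 in uninjured.

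**Figure D4:**
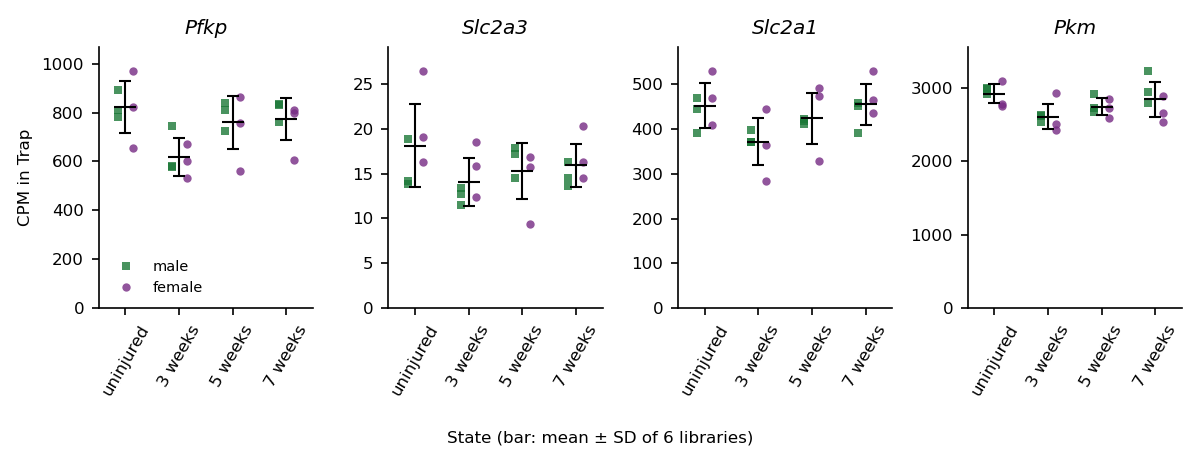
Levels (CPM) of Pfkp, Slc2a3, Slc2a1 and Pkm in Trap libraries by state, with a point per library (green squares, males; purple circles, females) and bars for the mean ± SD of 6 libraries. The 3-week libraries have the lowest mean of the 4 states for each gene, and all 4 overlap the uninjured libraries.

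At 5 weeks 0 of 31 genes were called by edgeR or DESeq2, 0 had an unadjusted p under 0.05, and 25 had a negative difference (80.6%, against 50.8% of all genes). Over all genes edgeR called 0% and DESeq2 called 1 gene. The smallest p belonged to Hk2, at 4.05 ± 0.746 CPM at 5 weeks and 5.24 ± 1.35 in uninjured (-0.36 ± 0.177), Pfkfb3 (-0.19 ± 0.105), Slc2a3 (-0.24 ± 0.139) and Eno1 (-0.11 ± 0.069), each with an adjusted p of 1.0. At 7 weeks 0 were called by edgeR (0% of all genes) or by DESeq2 (0 of all genes), 0 had p under 0.05 and 13 were negative, which became 23 without male 7 weeks replicate 2 (median 0.00 with it, -0.05 without). Rpe (-0.10 ± 0.064), Hk2 (-0.27 ± 0.176), Slc2a3 (-0.18 ± 0.139) and Pfkfb3 (-0.13 ± 0.105) had the smallest p there. The 5 and 7 week intervals of all 31 genes lay inside ±1, and those of 28 genes inside ±0.5 at each time. The 3 comparisons share their uninjured libraries, so a sign seen in several of them is not independent.

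**Figure D5:**
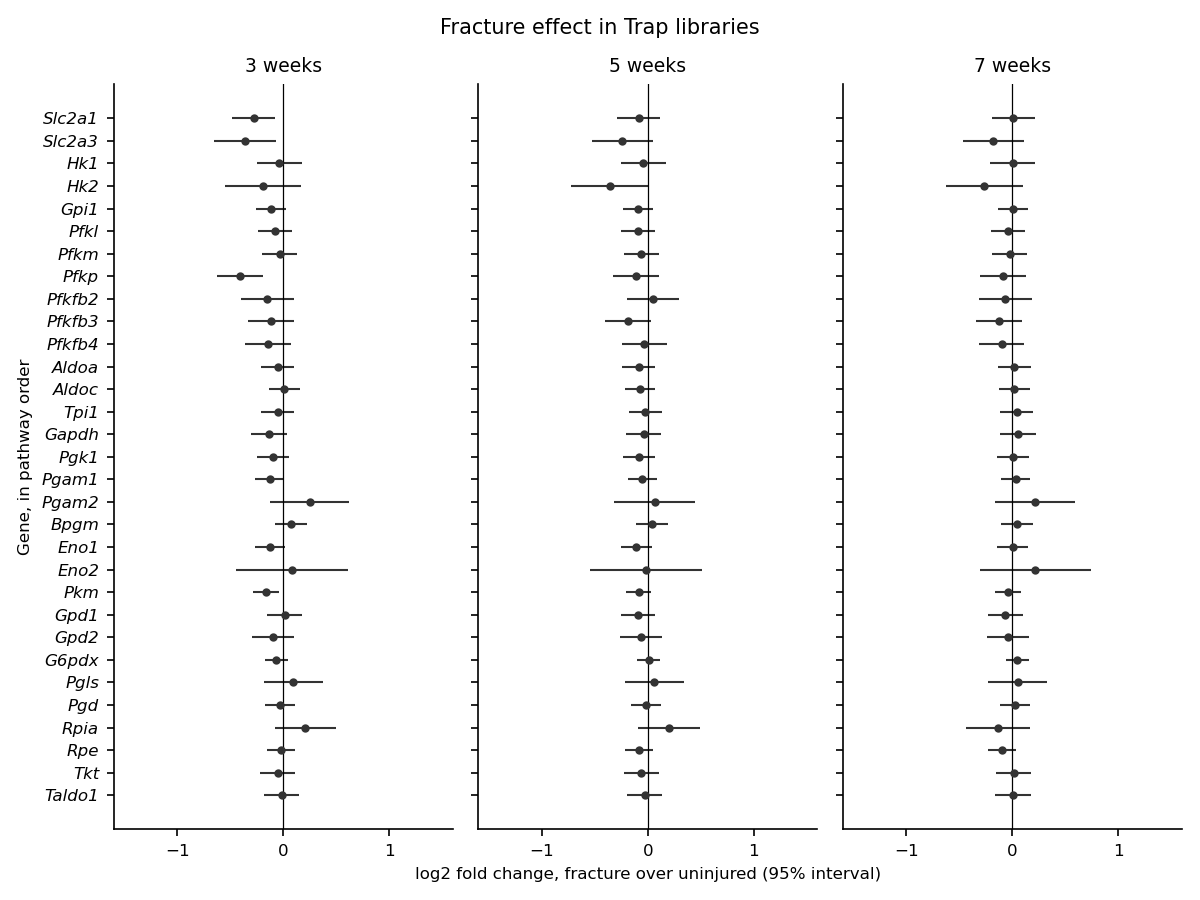
Log2 fold change of fracture over uninjured Trap libraries at 3, 5 and 7 weeks with its 95% interval for 31 genes in pathway order. Intervals lie inside ±1 throughout; Pfkp at 3 weeks, -0.41, lies farthest left.

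Setting 7 weeks against 3 weeks needs no uninjured library. edgeR called 0 of the 31 genes (0.0195% of all genes) and DESeq2 called 0, while 7 had an unadjusted p under 0.05 (22.6%, against 7.93% of all). Pfkp was 774 ± 85.5 CPM at 7 weeks and 619 ± 76.6 at 3 weeks (0.32 ± 0.103, adjusted p = 0.325), and Slc2a1 455 ± 44.9 at 7 weeks and 372 ± 52.3 at 3 weeks (0.29 ± 0.098, adjusted p = 0.389). With replicate number as a block edgeR called 0 of the 31 genes. With the block within each sex, chosen after seeing the data, edgeR called Pfkp (adjusted p = 0.0263) and Slc2a1 (0.0462). Pgam1 differed by 0.16 ± 0.065 and Rpia by -0.35 ± 0.143, both with an adjusted p of 0.524. Of the 31 genes 23 were positive, 21 without male 7 weeks replicate 2 and 19 without female 3 weeks replicate 3. Without both libraries that stood apart, 16 were positive and the median moved to 0.00, against 0.06 with all libraries.

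Within each sex 0 of the 31 genes were called by edgeR or DESeq2 at any time (edgeR called 0.039% of all genes at 3 weeks in females and 0% in the other 5). With the replicate block within each sex, chosen after seeing the data, edgeR called Pfkp in females at 3 weeks (-0.42 ± 0.082, adjusted p = 0.0228). DESeq2 called 66 of all genes at 3 weeks in females, 0 at 5 and 7 weeks in females, and 1 at each time in males. Unadjusted p under 0.05 in edgeR was reached by 2 genes at 3 weeks in males, Pfkp and Pkm (6.45%, against 3.08% of all genes). In females at 3 weeks it was reached by 2, Pfkp and Slc2a1 (6.45%, against 8.47% of all genes). At 5 weeks it was reached by 0 in males (2.2% of all genes) and by 2 in females, Slc2a3 and Hk2 (3.87% of all genes). At 7 weeks it was reached by 1 in males, Pgam2 (2.38% of all genes), and 0 in females (2.45% of all genes). Ranges within a sex did not overlap at 3 weeks for 9 of 31 genes in males (11.4% of all genes) and 3 in females (14.8%), at 5 weeks for 6 in males (11.1%) and 2 in females (8.3%), and at 7 weeks for 2 in males (5.43%) and 1 in females (8.44%). The 9 in males at 3 weeks were Pfkp, Pkm, Eno1, Pgk1, Slc2a3, Gpi1, Gapdh, Aldoa and Pfkfb3, each lower after fracture. In females at 3 weeks they were Rpia, Bpgm and Pgls, each higher. Negative differences in females at 3 weeks were 21 of 31, and 14 without female 3 weeks replicate 3; in males at 7 weeks they were 12, and 24 without male 7 weeks replicate 2.

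The fracture effect differed between males and females for 0 of 31 genes at any time by either tool (0% of all genes in edgeR, and 1 gene of all at each time in DESeq2). In edgeR 0, 1 and 0 had an unadjusted p under 0.05 at 3, 5 and 7 weeks, against 2.59%, 3.03% and 1.97% of all genes. Averaged over the states, edgeR called 0 of 31 genes between male and female Trap libraries (0.195% of all genes), and DESeq2 called 1, Gpd1. In edgeR 5 had an unadjusted p under 0.05 (16.1%, against 9.79% of all genes). Gpd1 averaged 1058 ± 89.0 CPM in males and 898 ± 85.6 in females (SD, n = 12 each), a difference of 0.24 ± 0.055 (edgeR adjusted p = 0.0858) with overlapping libraries. Pfkfb4 (0.18 ± 0.073), Gapdh (0.14 ± 0.058) and Aldoc (0.11 ± 0.050) followed; without both libraries that stood apart Gapdh differed by 0.07 ± 0.034 and Aldoc by 0.06 ± 0.035. Of the 31 genes 5 had a negative difference, and 10 did without both libraries that stood apart. The column headers of the deposited counts carry prefixes such as JSD2M or JSD2F, and none of them holds both sexes. Sex and whatever else separated the male from the female Trap libraries therefore cannot be told apart.

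Whole cord after fracture was covered by 2 Input libraries per state, 1 of each sex, fitted with sex as a term and 3 residual degrees of freedom. edgeR and DESeq2 called 0 of 32 genes at 3, 5 or 7 weeks, against 1.08%, 0.107% and 0.214% of all genes in edgeR. In edgeR 2, 0 and 2 genes (6.25%, 0% and 6.25%) had an unadjusted p under 0.05, against 13.9%, 8.49% and 5.87% of all genes. Slc2a1 had 115.8 and 97.8 CPM in the male and female 3-week Inputs, against 121.1 and 125.4 in the male and female uninjured Inputs (-0.23 ± 0.079, adjusted p = 0.197). Without male uninjured Input replicate 1 it was called (edgeR, -0.39 ± 0.083, adjusted p = 0.0216), as was Gpd1 (-0.37 ± 0.088, adjusted p = 0.0448). At 7 weeks Slc2a1 had 115.5 and 97.0 CPM in the male and female Inputs (-0.21 ± 0.080, adjusted p = 0.708). The other gene under 0.05 at 3 weeks was Hk1 (0.15 ± 0.056). In the 3-week Inputs 4 of 12 astrocyte markers were called lower (smallest adjusted p = 0.000682) and all 7 microglia markers had a positive difference (median 0.21, 0 called); their part in the values of Slc2a1 and Hk1 was not tested. At 7 weeks it was the muscle-type mutase Pgam2, at 4.62 ± 0.0894 CPM in 7-week and 3.08 ± 0.187 in uninjured Inputs (0.60 ± 0.209, adjusted p = 0.604), together with 6 of 10 skeletal muscle genes called higher there. The fracture effects of Trap and Input differed for 0 of 32 genes at each time in either tool (0%, 0.00572% and 0% of all genes in edgeR, and 1, 0 and 0 genes of all in DESeq2). In edgeR 1 (Pkm), 0 and 1 (Pfkfb1) had an unadjusted p under 0.05, against 3.04%, 2.3% and 2.63% of all genes.

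Male and female Inputs differed in glycolysis, a comparison added after the values were seen. edgeR called 22 of 32 genes higher and 3 lower in males, DESeq2 19 and 3, and 46.2% of all genes tested were called, so calls were frequent throughout the transcriptome. The male and female ranges did not overlap for 23 of the 32 genes and for 41.5% of all genes. Pkm had 1914, 2027, 2027 and 2066 CPM in the 4 male Inputs, against 1585, 1629, 1644 and 1712 in the 4 female ones, a difference of 0.25 ± 0.032 (adjusted p = 6.57e-06) without overlap. Eno2 differed by 0.28 ± 0.038, Tpi1 by 0.29 ± 0.037, Aldoc by 0.25 ± 0.033 and Gapdh by 0.25 ± 0.035, each without overlap. Higher calls ran from 0.11 for Pfkp to 0.32 for Pgls, and the lower ones were Rpe (-0.67 ± 0.093), Pfkfb2 (-0.29 ± 0.087) and Gpd2 (-0.16 ± 0.044). Among the markers, 4 neuron markers were higher and 5 lower, and 3 astrocyte markers were higher and 5 lower. Of 8 oligodendrocyte markers 4 were higher and 1 lower (median 0.18), of 5 mural markers 3 were higher (median 0.36), of 6 endothelial markers 2 were higher (median 0.28), and of 7 microglia markers 2 were higher and 1 lower (median 0.13). Red blood cell markers (4 of 5 called lower, median -0.42), skeletal muscle genes (4 of 10 called lower, median -0.16) and 1 of 3 Schwann cell markers were lower. The part of these markers in the glycolytic values was not tested. Each sex and state had 1 Input library, so sex and whatever else separated the male from the female Inputs cannot be told apart. The difference between the sex effects of Trap and Input was not tested.

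The lists around the pathway gave 0 calls in the fracture comparisons in Trap. At 3 weeks 0 of 25 other sugar genes and 0 of 21 regulators passed in edgeR. Among the other sugar genes the smallest p belonged to H6pd, the pentose phosphate dehydrogenase of the endoplasmic reticulum (-0.47 ± 0.141, adjusted p = 0.207), and the carrier Slc2a8 (-0.24 ± 0.093, 0.431). Among regulators they were Txnip, a glucose-responsive inhibitor of glucose uptake (-0.49 ± 0.138, 0.172), and its relative Arrdc4 (0.31 ± 0.183, 0.714). Txnip at 7 against 3 weeks differed by 0.50 ± 0.138 (adjusted p = 0.233). At 5 and 7 weeks neither list had a gene called, and the smallest adjusted p in both was 1.0. At 3 weeks 1 of the 12 astrocyte markers was lower as a call, and 10 of 12 had a negative difference (median -0.09). The medians were 0.05 for neuron, -0.15 for oligodendrocyte, 0.07 for microglia, 0.25 for endothelial, 0.43 for mural (4 of 5 positive), 0.63 for Schwann cell (3 tested), -0.26 for red blood cell and 0.07 for skeletal muscle markers, with 0 called; the part of these markers in the values of the glycolytic genes was not tested.

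Transcripts of skeletal muscle were present in every library at nearly the same count in both fractions, a list of 10 genes chosen after the values were seen. Their summed count was 9016 to 12194 in Trap and 8855 to 12229 in Input. Ckm, the muscle creatine kinase, had 783 to 1094 counts in Trap and 756 to 1125 in Input, and Myh4, a fast myosin, 2372 to 3262 in Trap and 2503 to 3229 in Input. Pgam2 had 48 to 115 counts in Trap and 71 to 110 in Input, and the muscle enolase Eno3, outside the 32 genes, 217 to 348 in Trap and 246 to 343 in Input. By CPM all 10 muscle genes were called higher in Trap (0.33 to 0.54), as was Eno3 (0.30 ± 0.080), while Pgam2 was not called (0.12 ± 0.114). Genes at nearly equal counts in both fractions thus had small positive differences after scaling. The difference of Taldo1 lay within the range of the muscle genes, and that of Aldoa (0.55) just above it. How far muscle RNA adds to Pgam2, or to Pfkm and Aldoa, whose products also serve muscle, was not tested.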

How the data were processed

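RNA of lumbar spinal cord was measured by poly-A RNA-seq in 24 Trap and 8 Input libraries. The values the authors deposited are estimated counts (expected counts) per Ensembl gene, made with RSEM. STAR, Trim Galore, FastQC, RSEM and the build GRCm38 are named in the submitters' processing notes, without versions. Between 6.21% and 8.53% of the values in a library were not whole, and counts were rounded before testing. Gene positions come from GENCODE M21, promoters from RefSeq GRCm38.p6.

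The main test was the quasi-likelihood test of edgeR 4.0.16, run in R 4.3.3 (genes kept by filterByExpr with a minimum count of 10, TMM scaling, robust fit, 2-sided, Benjamini-Hochberg adjustment over all genes tested, call at adjusted p under 0.05). Trap comparisons used 24 libraries with a mean per sex and state (16 residual degrees of freedom, median biological variation 13.9%), Trap against Input all 32 libraries with sex and state as terms. Levels are TMM-scaled CPM, and errors of log2 differences are standard errors. DESeq2 1.42.0, other scaling, no filter, a carry-over covariate, replicate blocks, summed near copies, transcript length and leaving out each library were alternatives. The fit was tested on simulated counts with known changes. In the 3-week Trap comparison it recovered 54.6% of changes of 0.5 on the log2 scale and 87.4% of those of 1.0, with 11 false calls. In the 3-week Input comparison it recovered 46.2% and 74.5%, with 14 false calls. For Trap against Input it recovered 71.3% and 90.2%, with 7 false calls.

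Genes named are the called ones, the highest and lowest and 1 per step for Trap against Input, or up to 4 with the smallest p. The members and lists were chosen with earlier results of these data known. The Input sex comparison and the muscle list were added after values were seen.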

Additional observations from a re-analysis of the deposited data

Results flagged for a closer look

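Within the groups of 4 to 10 libraries, 155 gene and group combinations were examined for a library far from the others (Dixon's test), and 19 were picked out; chance picks out about 5% of such groups. Male 7 weeks replicate 2 accounted for 7 of them as the highest of 6 libraries. It had 2133 CPM of Aldoa (others 1308 to 1436), 21450 of Aldoc (14770 to 17070), 1387 of Tpi1 (951.2 to 1056), 6539 of Gapdh (3780 to 4301), 1641 of Pgk1 (1110 to 1309), 44.63 of Pgls (17.07 to 26.57) and 175.5 of Taldo1 (114.7 to 135.6).

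Female libraries of replicate 3 held 7 others. Female 3 weeks replicate 3 had 83.3 CPM of Eno2 (others 25.05 to 40.39) and 379.8 of Tkt (459.4 to 502.3). Female 5 weeks replicate 3 was lowest for Pfkfb3 at 135.0 CPM (others 173.8 to 194.7), Gpd2 at 321.0 (442.3 to 496.3) and Pgd at 68.15 (79.05 to 83.41). Female 7 weeks replicate 3 was lowest for Pfkl at 335.1 CPM (others 404.8 to 428.7) and Pfkp at 607.8 (762.8 to 834.1). The carry-over index was the highest of its state in each of these libraries.

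In the uninjured state female replicate 1 had 401.4 CPM of Hk1 (others 419.2 to 429.7) and 7.912 of Hk2 (4.308 to 5.262), female replicate 2 had 1492 of Eno1 (1674 to 1736), and male replicate 2 had 150.1 of Taldo1 (128.6 to 132.5). The male 7 weeks Input held 3.066 CPM of Hk2, against 4.611 to 5.494 in the other 7 Inputs.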

How the results depend on the processing

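The 25 higher and 3 lower genes of Trap against Input stood as counts under DESeq2's size factors and test and over Input libraries left out in turn; without a filter they were 25 and 4. At 3 weeks in Trap the count of lower genes was 0 and became 1 (Pfkp) under the DESeq2 test (adjusted p = 0.0248), the carry-over covariate (0.0423), the replicate block (-0.41 ± 0.069, 0.0130) and without female uninjured replicate 3 (0.0493); over all libraries left out in turn it was 0 to 1. With the replicate block within each sex, chosen after seeing the data, it was 2 (Pfkp -0.41 ± 0.058, 0.00317; Slc2a1 -0.28 ± 0.062, 0.0416), with 1 lower in females at 3 weeks (Pfkp 0.0228) and 2 higher at 7 against 3 weeks (Pfkp 0.0263, Slc2a1 0.0462). The deviations of same-numbered Trap libraries of a sex correlated at r of -0.0684 to 0.225, over 0.1 in 7 of 36 pairs (median 0.0605), against 1 of 72 differently numbered pairs of a sex (median -0.0305). That is a hint from the data of something shared by number within a sex. The column headers of the deposited counts also share a prefix by number and sex, such as JSD2F or JSD3M. Female replicate 1 has no prefix, and what the prefixes stand for is not stated. The fits without the block were kept. Genes called at 3 weeks over the transcriptome were 17, and 130 under the DESeq2 test, 44 with the block, 80 with the block within each sex, 51 with the covariate, 106 without both libraries that stood apart and 3 to 47 over libraries left out in turn. Between males and females in Trap 1 gene (Gpd1) was called without a filter (0.0274), by DESeq2 (0.0136) and without female uninjured replicate 3 (0.0223); over libraries left out it was 0 to 1. In Input at 3 weeks 0 to 2 were lower, 2 (Slc2a1 and Gpd1) without male uninjured Input replicate 1. The causes were not tested.

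Per kb of the longest transcript, shares in Trap and Input were 99.15% and 98.49% for Hk1, 83.45% and 72.87% for Pfkm, 86.33% and 48.01% for Aldoc and 98.14% and 31.82% for Eno1; with near copies summed Eno1 had 98.67% and 39.54%. Input comparisons have 3 residual degrees of freedom, which limits their precision.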
